A study of Mus musculus with 12 samples.

Results

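Genes for the pore-forming and accessory subunits of voltage-gated sodium and calcium channels and of potassium channels were followed across 4 groups of mouse forebrain samples. They were chosen by gene symbol, taking every symbol that begins with Kcn, Cacna or Cacnb and the alpha and beta subunits of the Scn family. The arrays carried 237 probe sets (sets of short probes for 1 transcript) for 111 such genes. A probe set was kept where its log2 value was over 4 on at least 3 of the 12 arrays, and the kept probe set with the highest mean stood for its gene. This filter left 68 of the 111 channel genes, in 19 classes, and 11449 of the 18193 genes on the arrays with a single symbol. The choice by symbol also took in cytoplasmic partners such as the KChIP proteins and Kcnq1ot1, a noncoding RNA transcribed antisense to a potassium channel gene.

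The series compared mice homozygous for a gene-trap allele of Qkf (gt/gt) with wild types. Qkf is another name of Kat6b, a histone acetyltransferase. RNA from each sample was amplified over 2 cycles and hybridised to its own Affymetrix array, and the values are log2 expression values as deposited. The groups, with 3 arrays each, were Qkf gt/gt adult dorsal cerebral cortex, wild-type adult dorsal cerebral cortex, Qkf gt/gt dorsal telencephalon at E12.5 (mid-gestation, early in cortical neurogenesis) and wild-type E12.5 dorsal telencephalon. All mice were of strain 129/Sv. The adults were males, aged 155, 112 and 99 days in the mutants and 155, 112 and 101 days in the wild types, each with its own mouse number. The embryos came from 2 crosses, the first giving mutant 1 and wild type 1 and the second the other two of each genotype, and their sex was not labelled. The labels do not say if an E12.5 array held RNA of a single embryo or of several. The labels name no tissue-specific driver. By the array descriptions, the adults formed 1 array set, E12.5 mutant 1 stood in a set of its own and the other 5 embryos formed another. Stage, dissected region and array set changed together between adults and embryos and cannot be told apart, and the set of E12.5 mutant 1 cannot be told apart from that sample. In such tissue RNA, fewer cells of a type and less RNA per cell cannot be told apart.

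Voltage-gated sodium channels carry the rising phase of the action potential, voltage-gated calcium channels couple depolarisation to transmitter release and gene regulation, and potassium channels repolarise the membrane and set its resting level. Each pore is built from alpha subunits, which accessory beta, alpha2delta or calcium-binding subunits carry to the surface and tune. At E12.5 the dorsal telencephalon is made mostly of dividing radial glia and the earliest neurons, whereas the adult cortex holds spiking projection neurons, interneurons and mature glia.

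The labels and tissues were checked on other genes first. Kat6b stood at 7.11 ± 0.17 in adult mutants and 9.58 ± 0.21 in adult wild types, and at 7.06 ± 0.77 in E12.5 mutants and 11.37 ± 0.08 in E12.5 wild types (SD, n = 3 each), so that it was lower in the mutants of both stages (adjusted p = 0.017 in adults, limma). The adult call was lost when any single adult array was left out, with adjusted p-values of 0.058 to 0.150, and the sources used here do not give where its probes lie relative to the insertion. The mean of 9 mature neuron markers lay between 12.69 and 12.82 on adult arrays and between 6.10 and 6.46 on E12.5 arrays, and that of 8 radial glia and progenitor markers between 5.76 and 5.95 on adult arrays and between 10.98 and 11.18 on E12.5 arrays. The floor of every array was 2.19, and array medians ran from 3.64 to 3.74. A value at or near a probe set's own lowest value is a lower limit of the method, so a difference from it understates the change, and no fold is given for it.

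Nearly all channel genes that passed the filter had higher levels in the adult cortex than in the E12.5 telencephalon, in mutants and in wild types. In mutants, 59 of the 68 genes rose and 2 fell at an adjusted p under 0.05 (limma, Benjamini-Hochberg over all 11449 genes), where 39.5% of all genes rose and 42.2% fell. In wild types, 58 rose and 3 fell, where 38.4% of all genes rose and 43% fell. The 58 genes called higher in wild types were also called higher in mutants, and 2 genes, Kcnk5 and Kcnn1, were called lower in both. The median difference over the 68 genes was 4.52 on the log2 scale in mutants, against -0.05 over all genes, and 4.40 in wild types, against -0.08 over all genes.

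**Figure D1:**
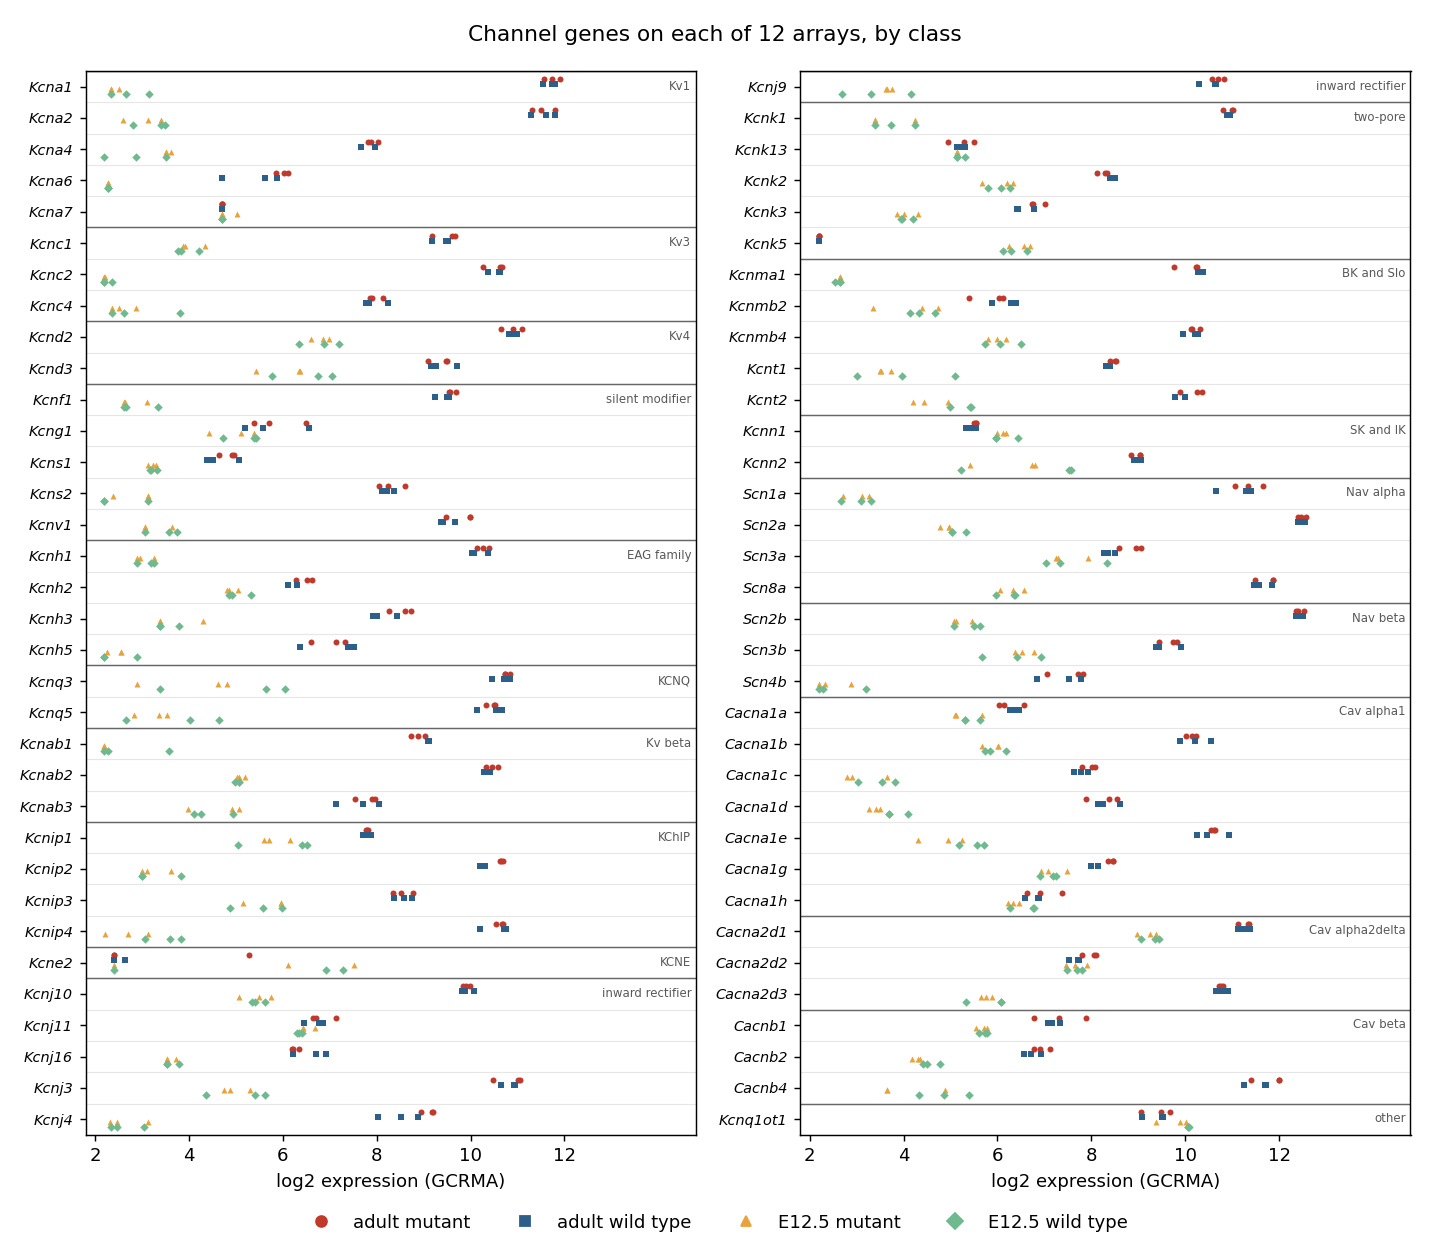
Log2 expression of the 68 channel genes that passed the filter (horizontal axis) on each of 12 arrays, grouped by channel class down the page, with adult mutants as circles, adult wild types as squares, E12.5 mutants as triangles and E12.5 wild types as diamonds. In 57 of the 68 genes every adult array lies above every E12.5 array, and in 2 every adult array lies below.

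The filter itself shaped these counts, since a gene could pass through one stage alone. Of the 68 genes, 28 were over 4 on at least 3 adult arrays but on fewer than 3 E12.5 arrays, and these had to differ between the stages. Another 2 genes, Kcnk5 and Kcne2, passed only through the E12.5 arrays. The other 38 genes were over 4 on at least 3 arrays of each stage. Of these 38, 30 rose and 2 fell in wild types, where 35.8% of all 9852 genes measured in both stages rose and 43.3% fell. Wild-type differences were over 2 on the log2 scale in 49 of the 68 genes, over 4 in 39 and over 6 in 17. The mutant and wild-type differences, which share no array, correlated across the 68 genes at r = 0.993, with a median gap of 0.25 between them. Genes are not independent replicates, and this correlation describes only how alike the stage differences were.

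The sodium channel alpha subunits, which form the pore, separated into genes that were near the lower limit at E12.5 and genes that were already measured there. Scn1a, best known from fast-spiking interneurons, stood at 11.33, 11.65 and 11.06 in adult mutants and 11.40, 10.65 and 11.30 in adult wild types, against 3.26, 3.12 and 2.71 in E12.5 mutants and 3.08, 3.31 and 2.67 in E12.5 wild types. Every adult array lay far above every E12.5 array, and the wild-type difference was 8.10 (SE 0.24, adjusted p = 6.5e-11, limma). Scn1a passed the filter only through the adult arrays and had to differ. Scn2a, the main pore of immature excitatory axons, stood at 12.41, 12.46 and 12.57 in adult mutants and 12.41, 12.55 and 12.48 in adult wild types, against 4.97, 4.78 and 4.97 in E12.5 mutants and 5.03, 5.33 and 5.03 in E12.5 wild types. It was measured at both stages, and the wild-type difference of 7.35 (SE 0.11, adjusted p = 2.6e-13) was 164-fold. Scn8a, the pore that lies densest at mature axon initial segments and nodes, ran from 11.47 to 11.87 on adult arrays and from 5.97 to 6.57 on E12.5 arrays, and was 42.3-fold higher in wild-type adults.

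Scn3a, a sodium channel known for high expression before birth, changed least among the alpha subunits. It stood at 8.95, 9.05 and 8.59 in adult mutants and 8.26, 8.36 and 8.51 in adult wild types, against 7.92, 7.28 and 7.24 in E12.5 mutants and 8.34, 7.34 and 7.03 in E12.5 wild types. The mutant arrays of the stages did not overlap, while wild-type embryo 1 lay inside the range of the adult wild types. The difference was 1.38 in mutants (adjusted p = 0.0012) and 0.80 in wild types (SE 0.30, adjusted p = 0.027, limma), 1.75-fold. The wild-type call was lost in 6 of the 22 other settings, with adjusted p-values of 0.056 to 0.119, among them 4 that left out a single wild-type array: adult 2 (0.056), adult 3 (0.077), embryo 2 (0.088) and embryo 3 (0.119, with a difference of 0.53). Scn3a and Scn2a are next to each other in the gene order of the RefSeq annotation, and Scn1a lies beside Scn9a, which did not pass the filter.

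The accessory beta subunits, which are single-span membrane proteins, all rose. Scn2b ran from 12.37 to 12.54 on adult arrays and from 5.07 to 5.63 on E12.5 arrays, with a wild-type difference of 7.06, or 3.75 when its probe sets were averaged. Scn4b, the subunit linked to resurgent sodium current, stood at 7.72, 7.82 and 7.05 in adult mutants and 7.78, 6.83 and 7.52 in adult wild types, against 2.87, 2.33 and 2.2 in E12.5 mutants and 3.19, 2.19 and 2.29 in E12.5 wild types. Its E12.5 values lay at or near the lower limit, so that the wild-type difference of 4.82 is understated. Scn4b passed the filter only through the adult arrays and had to differ. Scn3b ran from 9.37 to 9.91 on adult arrays and from 5.68 to 6.93 on E12.5 arrays, a smaller wild-type difference of 3.23 (9.39-fold).

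**Figure D2:**
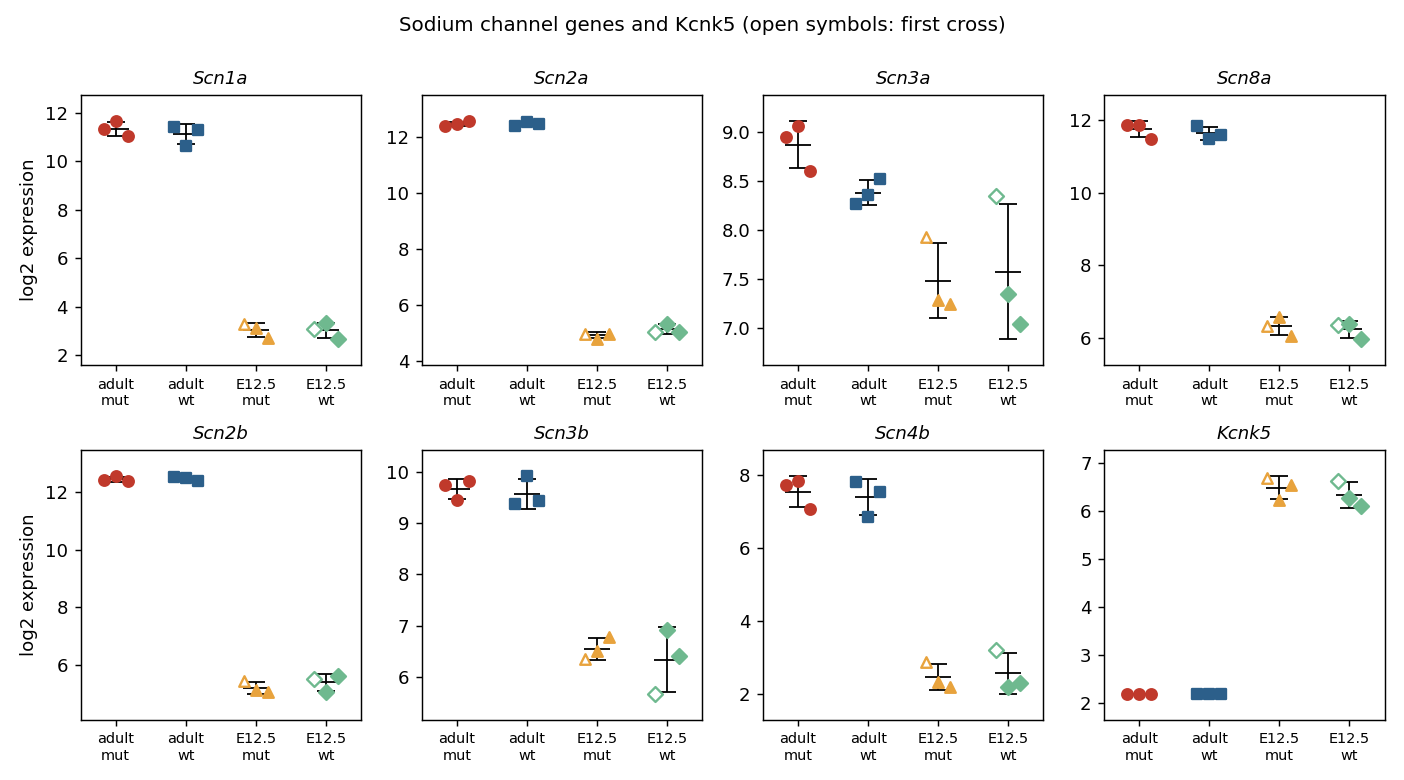
Log2 expression (vertical axes, each with its own range) of 7 sodium channel genes and Kcnk5 in adult mutants, adult wild types, E12.5 mutants and E12.5 wild types, with a point for each array, lines for the mean ± SD of 3 arrays, and open symbols for the embryos of the first cross. Scn1a, Scn2a, Scn8a and the beta subunits lie higher in adults, Scn3a differs by 0.80 in wild types, and Kcnk5 lies at 2.2 on all adult arrays.

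Promoters of Scn1a and Scn2a, the sodium channel pore genes with the largest differences, are shown for comparison with that of Kcnk5, given with its values. Each runs from 250 bases before to 50 bases after a transcription start in the RefSeq annotation of assembly GRCm38.p6, and capitals mark CpG dinucleotides. The Scn1a promoter (chr2:66440788-66441087, minus strand) holds 5 CpG, and 2 Scn2a starts are listed, at chr2:65620519-65620818 with 3 CpG and at chr2:65668436-65668735 with 9 CpG and the letters TATAAA (both on the plus strand).
Scn1a: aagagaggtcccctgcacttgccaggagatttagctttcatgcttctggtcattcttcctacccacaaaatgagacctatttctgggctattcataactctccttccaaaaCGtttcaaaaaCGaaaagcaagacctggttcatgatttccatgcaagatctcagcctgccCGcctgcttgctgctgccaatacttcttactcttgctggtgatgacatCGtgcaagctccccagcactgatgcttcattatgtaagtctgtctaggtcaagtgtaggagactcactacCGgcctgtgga
Scn2a, upstream start: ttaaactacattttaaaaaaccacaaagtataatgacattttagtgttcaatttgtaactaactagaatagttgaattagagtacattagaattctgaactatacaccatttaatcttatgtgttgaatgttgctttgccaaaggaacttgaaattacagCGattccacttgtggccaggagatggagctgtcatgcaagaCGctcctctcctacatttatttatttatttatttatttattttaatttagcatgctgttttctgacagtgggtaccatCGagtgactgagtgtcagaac
Scn2a, downstream start: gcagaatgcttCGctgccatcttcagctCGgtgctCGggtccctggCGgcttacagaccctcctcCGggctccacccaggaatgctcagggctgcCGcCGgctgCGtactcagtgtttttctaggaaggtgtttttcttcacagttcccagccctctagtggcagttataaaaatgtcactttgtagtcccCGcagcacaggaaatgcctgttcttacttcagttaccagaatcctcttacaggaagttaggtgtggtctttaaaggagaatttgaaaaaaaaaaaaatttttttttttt

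Among calcium channels, the pore-forming alpha1 subunits of the N-type, R-type and L-type channels rose strongly, and those of the P/Q-type and T-type channels changed little or did not pass the test. Cacna1e, the R-type pore, had a wild-type difference of 5.06 (SE 0.24, 33.3-fold, adjusted p = 3.0e-09, limma). It stood at 10.62, 10.64 and 10.54 in adult mutants and 10.46, 10.93 and 10.25 in adult wild types, against 4.94, 4.31 and 5.24 in E12.5 mutants and 5.19, 5.57 and 5.71 in E12.5 wild types. The N-type pore Cacna1b, which triggers transmitter release, was 19.5-fold higher in wild-type adults. The L-type pores Cacna1c and Cacna1d, which signal to the nucleus, differed by 4.32 and 4.51 in wild types, and all but 1 of their E12.5 values lay under 4. Both passed the filter only through the adult arrays, so that they had to differ.

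The remaining pores were already measured at E12.5. Cacna1a, the P/Q-type pore of mature terminals, ran from 6.03 to 6.56 on adult arrays and from 5.09 to 5.67 on E12.5 arrays, a wild-type difference of 0.94 (1.91-fold, adjusted p = 0.00054, limma). Cacna1g, a T-type pore, ran from 8.0 to 8.47 on adult arrays and from 6.90 to 7.49 on E12.5 arrays, a wild-type difference of 0.99. Cacna1h, another T-type pore, stood at 6.91, 6.63 and 7.38 in adult mutants and 6.59, 6.89 and 6.87 in adult wild types, against 6.46, 6.34 and 6.22 in E12.5 mutants and 6.28, 6.78 and 6.76 in E12.5 wild types. The adult and E12.5 wild types of Cacna1h overlapped. Its difference passed the test in mutants (0.64, adjusted p = 0.010) and not in wild types (0.18, adjusted p = 0.42), and the test of that gap, the difference between the stages in the mutant effect, gave 0.46 (SE 0.28, adjusted p = 0.936, limma).

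The accessory calcium channel subunits covered the same span. Cacnb4, a cytoplasmic beta subunit whose loss causes ataxia and seizures in mice, ran from 11.25 to 12 on adult arrays and from 3.65 to 5.40 on E12.5 arrays, and its wild-type difference was 6.69 (SE 0.35). Cacnb2 and Cacnb1 differed by 2.17 and 1.48 in wild types. Among the alpha2delta subunits, which carry the pores to the membrane, Cacna2d3 was 31.1-fold and Cacna2d1 3.94-fold higher in wild-type adults. Cacna2d1 ran from 11.12 to 11.39 on adult arrays and from 8.98 to 9.45 on E12.5 arrays. Cacna2d2 did not pass the test at either genotype, with 7.79 to 8.10 in adult mutants and 7.52 to 7.73 in adult wild types against 7.47 to 7.91 in E12.5 mutants and 7.48 to 7.81 in E12.5 wild types.

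Several Kv1 and Kv3 potassium channel genes were near the lower limit at E12.5 and far above it in adults, so that their differences are bounds and were not ranked. Kcna1, a low-threshold channel of axons whose mutation causes episodic ataxia, stood at 11.74, 11.90 and 11.56 in adult mutants and 11.80, 11.55 and 11.74 in adult wild types, against 2.34, 2.34 and 2.51 in E12.5 mutants and 2.34, 3.15 and 2.65 in E12.5 wild types. On 3 E12.5 arrays it lay within 0.05 of its lowest value, so the wild-type difference of 8.98 (SE 0.18, adjusted p = 2.2e-12, limma) is understated. Kcna2, its partner in heteromeric axonal channels, differed by 8.34 and ran from 2.59 to 3.48 at E12.5. Kcnc2, a fast delayed rectifier of fast-spiking interneurons, stood at 10.66, 10.62 and 10.27 in adult mutants and 10.63, 10.60 and 10.37 in adult wild types, against 2.19, 2.22 and 2.19 in E12.5 mutants and 2.37, 2.19 and 2.19 in E12.5 wild types. The related Kcnc1 was 43.7-fold higher in wild-type adults and Kcnc4 differed by 5.02. Kcna1, Kcna2, Kcnc1, Kcnc2 and Kcnc4 passed the filter only through the adult arrays, so that they had to differ.

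Other members of Kv1 stood apart from that pattern. Kcna6, next to Kcna1 in gene order, ran from 5.86 to 6.12 in adult mutants and from 4.70 to 5.88 in adult wild types, against 2.27 (to 2 decimals) on all 6 E12.5 arrays, a wild-type difference of 3.13. It passed the filter only through the adult arrays and had to differ. Kcna7, better known from muscle, lay within 0.05 of its lowest value, 4.71, on 11 arrays and stood at 5.02 on E12.5 mutant 1, and did not pass the test. The Kv1 genes Kcna3 and Kcna5 were over 4 on no array. The A-type Kv4 genes, which shape dendritic excitability, were measured at both stages: Kcnd2 was 17-fold and Kcnd3 7.25-fold higher in wild-type adults.

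The cytoplasmic partners of these pores all rose. KChIPs are calcium-binding subunits of Kv4 channels, and Kcnip4 and Kcnip2 differed by 7.07 and 7.0 in wild types, with E12.5 values between 2.21 and 3.84. Both passed the filter only through the adult arrays, so that they had to differ. Kcnip3 and Kcnip1 were measured at both stages and were 8.52-fold and 3.47-fold higher in wild-type adults. The 3 Kv beta genes, which encode aldo-keto reductase-like subunits of Kv1 channels, all rose, from Kcnab1 (6.43) over Kcnab2 (5.32) to Kcnab3 (3.19). Kcnab1 passed the filter only through the adult arrays and had to differ. Kcnip1 was 1 of 3 genes whose kept probe sets did not all share a sign in the wild-type comparison, the others being Cacna2d1 and Kcnq1ot1, while 35 of 38 genes with at least 2 kept probe sets showed 1 sign. The size of a difference depended on the probe set as well. Averaged over a gene's probe sets, the wild-type difference was 3.43 for Kcnab2, 2.69 for Kcnt1, 1.11 for Cacna2d1 and 0.87 for Kcnip1.

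The electrically silent subunits, which do not form channels alone but modify Kv2 pores, were called higher in 4 of 5 genes past the filter. All 4 passed the filter only through the adult arrays, so that they had to differ. Kcnf1, Kcnv1 and Kcns2 differed by 6.56, 6.02 and 5.74 in wild types, with all E12.5 values under 4, and Kcns1 by 1.43. Kcng1 was measured at both stages and did not pass the test. It ran from 5.39 to 6.5 in adult mutants and from 5.19 to 6.55 in adult wild types. At E12.5 it ran from 4.43 to 5.38 in mutants and from 4.71 to 5.43 in wild types. In the ether-a-go-go family all 4 genes past the filter rose. Kcnh1 (7.05), Kcnh5 (4.66) and Kcnh3 (4.58) passed it only through the adult arrays, so that they had to differ. Kcnh2, a channel with slow gating that also repolarises the heart, was measured at both stages and rose by 1.15 (2.21-fold). The M-current genes Kcnq5 and Kcnq3, which restrain repetitive firing, rose by 6.68 (SE 0.40) and 5.65 (SE 0.63). Of these, Kcnq5 passed the filter only through the adult arrays and had to differ. The embryos differed among themselves in Kcnq3, and their values are given with the crosses.

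Inward rectifiers let potassium in more easily than out and hold the resting potential. Kcnj9 and Kcnj3, subunits of G-protein-gated channels, rose by 7.16 and 5.71 (Kcnj3 52.3-fold) in wild types. Kcnj4, a strong rectifier of forebrain neurons, rose by 5.86, with E12.5 values between 2.32 and 3.12. Kcnj10, the main potassium-buffering channel of astrocytes, ran from 9.82 to 10.07 on adult arrays and from 5.06 to 5.75 on E12.5 arrays (22.2-fold in wild types). Its heteromeric partner Kcnj16 rose by 2.99. Kcnj9, Kcnj4 and Kcnj16 passed the filter only through the adult arrays, so that they had to differ. Kcnj11, the pore of the ATP-sensitive channel, did not pass the test in wild types (0.35, adjusted p = 0.052) or in mutants (0.31, adjusted p = 0.077).

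Kcnj9 and Kcnj10 lie next to each other in gene order, and their promoters are shown because this neuronal and this glial gene start on opposite strands. The Kcnj9 promoter (chr1:172329273-172329572, minus strand, GRCm38.p6) holds 5 CpG and the letters TATAAA, and the Kcnj10 promoter (chr1:172340960-172341259, plus strand) holds 21 CpG and a GC box, GGGCGG, on either strand. Capitals mark CpG.
Kcnj9: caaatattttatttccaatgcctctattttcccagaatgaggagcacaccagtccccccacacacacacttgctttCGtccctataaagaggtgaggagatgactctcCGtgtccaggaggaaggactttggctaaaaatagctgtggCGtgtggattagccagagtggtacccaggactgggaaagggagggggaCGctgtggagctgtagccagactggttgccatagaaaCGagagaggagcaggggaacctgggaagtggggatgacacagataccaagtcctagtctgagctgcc
Kcnj10: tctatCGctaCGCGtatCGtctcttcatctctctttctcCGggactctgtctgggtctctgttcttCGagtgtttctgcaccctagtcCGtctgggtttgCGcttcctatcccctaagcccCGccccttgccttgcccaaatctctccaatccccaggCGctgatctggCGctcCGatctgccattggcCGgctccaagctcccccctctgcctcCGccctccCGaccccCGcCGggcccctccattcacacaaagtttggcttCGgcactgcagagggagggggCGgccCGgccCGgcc

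Two-pore-domain channels carry background potassium leak, and this class held both a strong rise and the largest fall. Kcnk1 ran from 10.80 to 11.01 on adult arrays and from 3.40 to 4.25 on E12.5 arrays, a wild-type difference of 7.12. It passed the filter only through the adult arrays and had to differ. Kcnk3, an acid-sensitive leak channel, and Kcnk2, a mechanosensitive channel, were 5.67-fold and 5.27-fold higher in wild-type adults. Kcnk13, known in mice from microglia, lay between 4.95 and 5.49 on adult arrays and between 5.14 and 5.30 on E12.5 arrays and did not pass the test. It had the same value, 5.14, on every E12.5 array except wild type 3, so that equal levels at both stages are not shown.

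Kcnk5, a leak channel that opens at alkaline pH, was higher in embryos. It gave its lowest value, 2.2, on all 6 adult arrays, against 6.70, 6.24 and 6.55 in E12.5 mutants and 6.63, 6.28 and 6.11 in E12.5 wild types. The difference was -4.29 in mutants and -4.14 in wild types (SE 0.14, adjusted p = 2.4e-10, limma), a bound set by the lower limit in adults. Kcnk5 passed the filter only through the E12.5 arrays, so that it had to differ. Among the 68 genes past the filter it was the only one with every adult array under 4, whereas 21 had every E12.5 array under 4. Its promoter (chr14:20181733-20182032, minus strand, GRCm38.p6) holds 26 CpG and a GC box, with CpG in capitals.
Kcnk5: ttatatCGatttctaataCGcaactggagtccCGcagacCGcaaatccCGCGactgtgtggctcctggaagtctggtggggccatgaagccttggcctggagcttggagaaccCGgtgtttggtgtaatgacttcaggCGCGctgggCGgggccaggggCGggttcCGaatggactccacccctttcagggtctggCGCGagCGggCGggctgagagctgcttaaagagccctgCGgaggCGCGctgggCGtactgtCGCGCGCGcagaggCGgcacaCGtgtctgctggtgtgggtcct

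Kcne2 was the other gene measured mainly at E12.5. It encodes a small single-span subunit known from the choroid plexus, and stood at 2.40, 2.40 and 5.28 in adult mutants and 2.40, 2.40 and 2.63 in adult wild types, against 2.40, 6.11 and 7.51 in E12.5 mutants and 2.40, 6.91 and 7.29 in E12.5 wild types. The high samples were adult mutant 3 and the 4 embryos of the second cross, and the groups overlapped. Transthyretin (Ttr), the main secreted product of the choroid plexus, stood at 15.16 in adult mutant 3 and between 6.78 and 9.18 on the other adult arrays, and at 10.78 in both embryos of the first cross and between 13.53 and 14.06 in those of the second. The mean of the 4 choroid plexus and hem markers past the filter, of 7 listed, was 6.58 in adult mutant 3 and between 3.96 and 4.44 on the other adult arrays. At E12.5 that mean overlapped between the crosses, at 6.27 and 6.85 in the first and 6.66 to 8.20 in the second. The markers Otx2, Folr1 and Clic6 also overlapped between the crosses, unlike Ttr. Kcnj13, an inward rectifier also known from the choroid plexus, was below the filter, with its highest value, 5.30, on adult mutant 3. The part of this tissue in the Kcne2 values was not tested.

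The calcium- and sodium-activated channels rose in 6 of 7 genes past the filter. Kcnma1, for one, passed it only through the adult arrays and had to differ. Kcnma1, the pore of the large-conductance BK channel, ran from 9.76 to 10.37 on adult arrays and from 2.54 to 2.65 on E12.5 arrays, a wild-type difference of 7.73 (SE 0.12). Its neuronal beta subunit Kcnmb4 was 16.5-fold higher and Kcnmb2 3.53-fold higher in wild-type adults. The sodium-activated channels Kcnt2 and Kcnt1 rose by 4.64 and 4.33. The small-conductance channels, which carry the afterhyperpolarisation, split: Kcnn2 rose by 2.23 (SE 0.55; 1.46 without wild-type embryo 1) and Kcnn1 fell by 0.69 (SE 0.13, adjusted p = 0.00046, limma). Kcnn1 ran from 5.33 to 5.55 on adult arrays and from 5.97 to 6.45 on E12.5 arrays, without overlap. Kcnq1ot1 ran from 9.06 to 9.68 on adult arrays and from 9.38 to 10.07 on E12.5 arrays. It fell by 0.69 in wild types (adjusted p = 0.0065) but was 0.54 higher in adult mutants and 0.47 higher in adult wild types when its probe sets were averaged, so that its direction depends on the probe set.

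The 43 channel genes below the filter were kept out of the tests reported here and were tested only in an alternative without the filter. Of these, 38 were over 4 on no array and 5 on 1 or 2 arrays. The 5 were Kcnj13, Kcnk10, Kcnk6, Scn11a and Scn7a. The classes with most genes below the filter were the inward rectifiers (9 of 15), the two-pore-domain channels (7 of 12), and 4 each of the silent subunits (of 9), the KCNE subunits (of 5) and the sodium channel alpha subunits (of 8). A value under the filter does not show that a gene was silent.

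The annotation listed promoters for 52 of the 68 genes, 82 in all with alternative starts. They held a median of 9.5 CpG in 300 bases, from 1 to 63, and 58.2% G or C, against 7 CpG and 52.7% over all 32851 listed promoters. The TATA letters TATAAA, on either strand, were found in 6.10% of channel promoters and 13.6% of all promoters, and the GC box GGGCGG, which itself holds 1 CpG, in 42.7% and 35.7%. The core letters of the repressor element RE1, AGCACCNNGGACAG on either strand and sharing no letters with the others, were found in none of the 82 and in 0.0518% of all. These shares describe the sequences and were not tested.

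Genes that work with these channels were followed in 4 lists. Of 26 channel-binding and axon initial segment proteins, 24 passed the filter, 8 of them only through the adult arrays, so that these 8 had to differ. Of the other 16, measured at both stages, 14 rose and 1 fell in each genotype, where 35.8% of all such genes rose and 43.3% fell in wild types. Fgf12, which binds the tail of sodium channels, and Dpp10, an auxiliary subunit of Kv4 channels, rose by 8.31 and 8.10 in wild types. All E12.5 values of both genes lay under 4, so that both were among the 8 that had to differ. Their E12.5 values in wild types were near the lower limit, and both rises are bounds. Fgf13, a relative of Fgf12, was already at 10.08 to 10.33 on E12.5 arrays and rose by 1.87. Of the other voltage-gated and leak channels, 2 of 4 past the filter rose, the sodium leak channel Nalcn by 4.79 and the pacemaker channel Hcn2 by 2.08. Hcn3, also among the 4, gave the same value, 4.65, on all 12 arrays, so that it could show no change. The TARP and gamma subunits, relatives of a calcium channel subunit that mostly escort AMPA receptors, rose in 3 of 4. Of these, 1 passed the filter only through the adult arrays and had to differ. Cacng3 rose by 6.07, with E12.5 values only from 3.39 to 4.03, and Cacng2 by 3.90, and Cacng4 fell by 2.61. The 3 repressors of neuronal genes all fell in wild types (adjusted p under 0.05 for each, limma), Rest by 4.38 and Rcor1 by 2.22. Rcor2 passed the filter only through the E12.5 arrays, so that it had to differ. Its fall of 5.41 is a bound, with adult values from 2.35 to 2.64.

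In the adult cortex no channel gene passed the test between Qkf mutants and wild types. All 68 had an adjusted p of 1 (limma), where 0.0524% of all genes were called. At an unadjusted p under 0.05 there were 5 channel genes of 68, where 4.54% of all genes passed. That count was 1 without mutant 1 or without wild type 2, and 3 without any 1 of mutant 2, mutant 3, wild type 1 and wild-type embryo 2. It was 3 under quantile normalization, median centring or averaged probe sets, 8 with only the adult arrays and 10 with array weights. Over all 11449 genes the count was 520 in the main fit, 334 without mutant 1 and 453 without wild type 2. It was 384 to 918 in the settings that gave 3, 680 with only the adult arrays and 1234 with array weights. Mutants lay above wild types without overlap in 5 genes, where 6.73% of all genes did so, and below without overlap in 3, where 2.66% did. The counts of channel genes were thus near those of all genes. Differences were positive in 46 of 68, with a median of 0.07, against 58.7% of all genes and a median of 0.03. That count was 43 after quantile normalisation and 37 after median centring, so that it depends on the scaling.

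Of the adult differences with the smallest p-values, of which none passed the test, Kcnj4 stood at 9.18, 8.94 and 9.20 in mutants and 8.51, 8.88 and 8.02 in wild types. Every mutant lay above every wild type, and the difference was 0.64 (SE 0.26, unadjusted p = 0.034, limma). Kcna6 differed by 0.60 (SE 0.23), Cacna1g by 0.34 (SE 0.15) and Cacna2d2 by 0.33 (SE 0.14), and both calcium channel genes did not overlap. Kcna6 overlapped, and its wild-type values spread from 4.70 to 5.88. Its other kept probe set did not share the sign, and its difference was as low as 0.12 in another setting. In the other direction, Kcnma1 stood at 9.76, 10.22 and 10.25 in mutants and 10.35, 10.37 and 10.28 in wild types, a difference of -0.26 (SE 0.12). The lowest of these was mutant 1, and the other mutants lay close to the wild types. Kcnj16 differed by -0.36 (SE 0.16), Kcnmb2 by -0.34 (SE 0.33) and Kcnk2 by -0.20 (SE 0.17). The other kept probe set of Kcnj16 did not share its sign.

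Other measures differed between the adult groups too. The mean of 6 endothelium and pericyte markers past the filter, of 7 listed, ran from 6.70 to 6.82 in adult mutants and from 6.38 to 6.55 in adult wild types, and 5 of the 6 were higher in mutants. The mean of 7 oligodendrocyte markers ran from 9.44 to 9.65 in mutants and from 9.6 to 9.93 in wild types, and none of the 7 was higher in mutants. The gap between the 3' and 5' control probe sets of actin, a measure of RNA integrity, was 1.91, 1.47 and 1.09 in mutants and 1.13, 1.13 and 1.06 in wild types. Their part in the channel values was not tested.

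**Figure D3:**
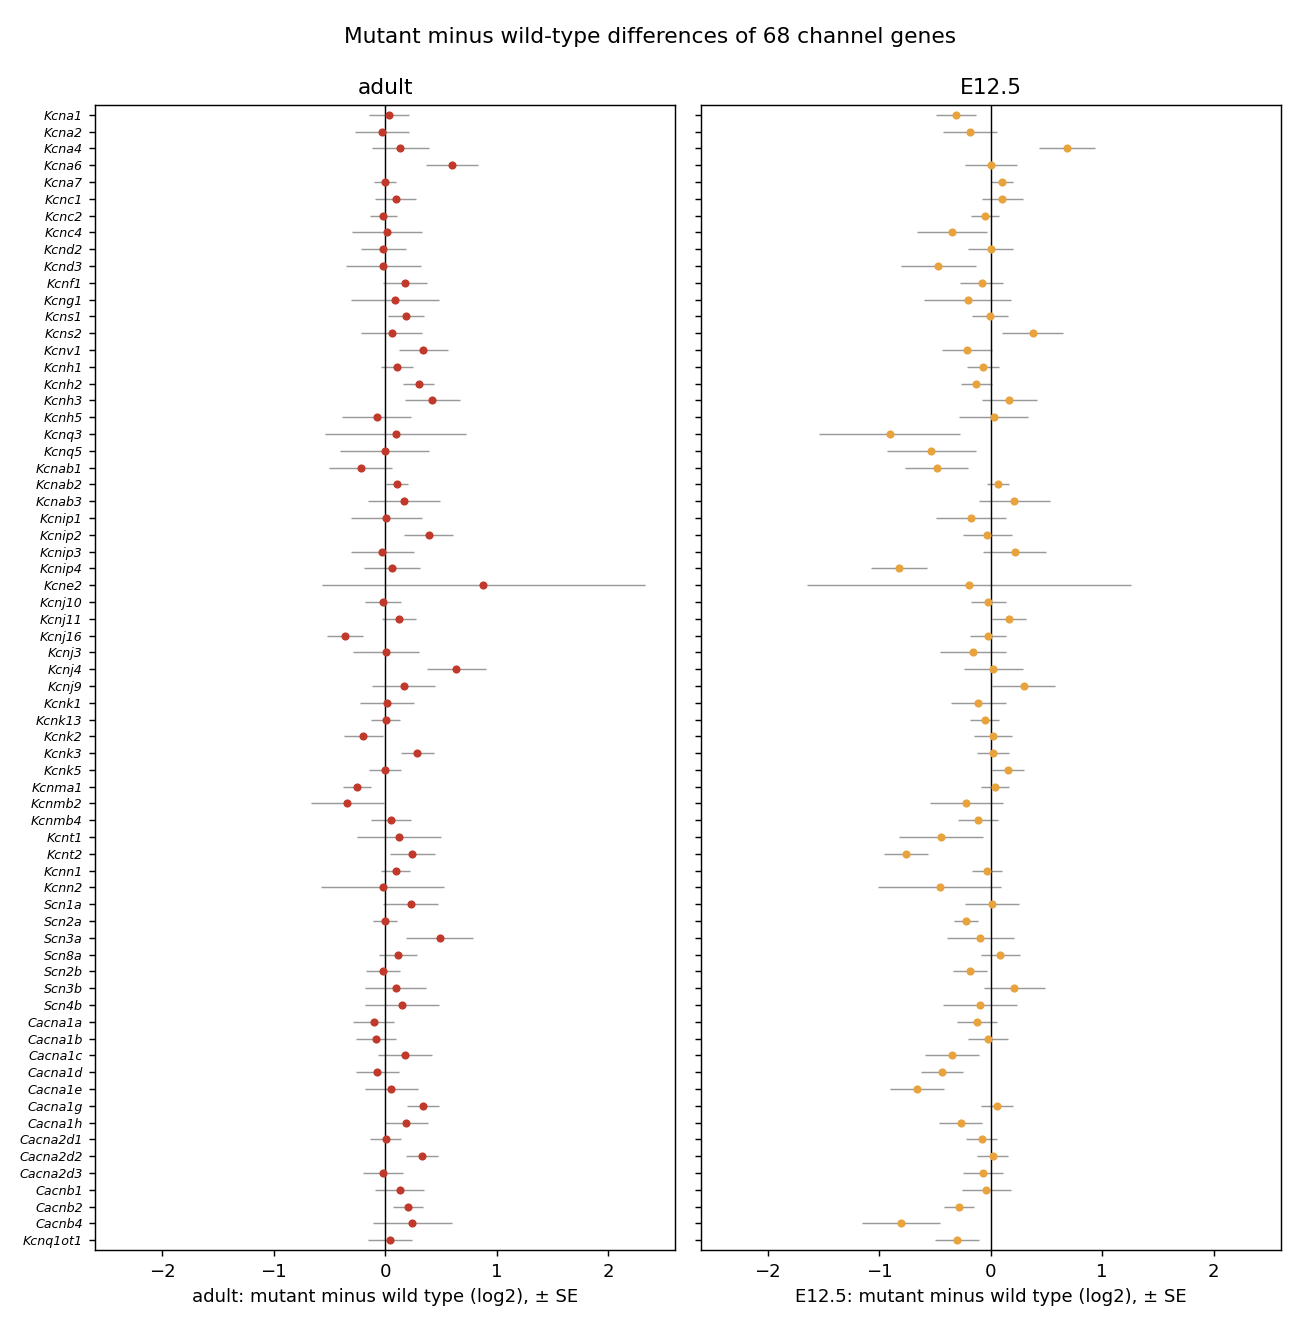
Mutant minus wild-type differences (log2, horizontal axes) with their SE from limma for the 68 channel genes, in adults at left and at E12.5 at right. No difference passed the test at either stage, and the widest bars belong to Kcne2.

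At E12.5 no channel gene passed the test either, and the lowest adjusted p was 0.515 (limma), where 0.0349% of all genes were called. At an unadjusted p under 0.05 there were 6 of 68, where 4.51% of all genes passed, and 5 of these 6 were lower in mutants. That count was 18 without wild-type embryo 1, 15 with array weights, 3 with only the E12.5 arrays and 5 without mutant embryo 1, which has an array set of its own. Over all 11449 genes the count was 516 in the main fit and 720, 1337, 421 and 773 in these settings, in the same order. Mutants lay below wild types without overlap in 5 genes (Kcnt2, Cacna1d, Cacnb2, Scn2a and Kcnq1ot1), where 5.06% of all genes did so, and above in 1 (Kcnj11), where 3.23% did. Differences were negative in 45 of 68 and positive in 22, with a median of -0.08, against 46.2% positive and a median of -0.01 over all genes. Without wild-type embryo 3 the median was -0.03, with 30 positive.

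The lowest p belonged to Kcnt2, a sodium-activated channel also opened by chloride. It stood at 4.19, 4.94 and 4.42 in E12.5 mutants and 5.0, 5.41 and 5.43 in E12.5 wild types. Every mutant lay below every wild type, though mutant 2 and wild type 1 were close, and the difference was -0.76 (SE 0.20, unadjusted p = 0.0030, adjusted p = 0.515, limma). Kcnip4 differed by -0.82 (SE 0.25), with 3.12, 2.69 and 2.21 in mutants against 3.84, 3.59 and 3.06 in wild types, values near the lower limit that overlapped. Cacna1e and Cacna1d differed by -0.66 (SE 0.24) and -0.44 (SE 0.19), and Cacna1d did not overlap, although all its mutant values were under 4. In the other direction, Kcna4, an A-type channel, differed by 0.68 (SE 0.25) with all values between 2.19 and 3.61. Kcns2 differed by 0.38, with all values between 2.19 and 3.12, and by -0.10 when its probe sets were averaged. Kcnj11 and Kcnk5 differed by 0.16 and 0.15, and leaving out 1 array moved them between 0.08 and 0.20 and between 0.04 and 0.30.

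Markers of other cell types were read on the same E12.5 arrays, and none passed the test between genotypes. The mean of 4 microglia markers past the filter, of 5 listed, ran from 4.60 to 5.06 in E12.5 mutants and from 4.25 to 4.54 in E12.5 wild types, without overlap, and all 4 were higher in mutants. The means of 6 astrocyte and of 6 endothelium and pericyte markers overlapped, at 6.28 to 6.67 and 6.43 to 6.70 in mutants and 6.02 to 6.36 and 6.05 to 6.62 in wild types. In each of these 2 lists, 4 of the 6 markers were higher in mutants. Gfap was 2.11 (adjusted p = 0.148, limma) and Pecam1 0.73 (adjusted p = 0.115, limma) higher, without overlap. Pecam1 lay at its lowest value, 4.19, in wild-type embryos 1 and 2 and on all adult arrays. Aldh1l1 (-0.09), Gja1 (-0.02), Pdgfrb (-0.05) and Rgs5 (-0.07) were lower in mutants. The part of these cell types in the channel values was not tested.

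The difference between the stages in the mutant effect, adult minus E12.5, was tested directly, and no channel gene passed (lowest adjusted p = 0.660, limma), where 0% of all genes were called. At an unadjusted p under 0.05 there were 3 of 68, where 5.5% of all genes passed, and 12 without wild-type embryo 1, 10 without the first cross and 10 with array weights. That count was 7 without mutant embryo 3 or with the replicate block, 6 without adult mutant 3, and 5 without adult wild type 3 or without mutant embryo 2. Over all 11449 genes the count was 630 in the main fit, 729 without wild-type embryo 1, 735 without the first cross and 1593 with array weights. It was 756 without mutant embryo 3, 862 with the block and 1145 without adult mutant 3. Without adult wild type 3 it was 643, and without mutant embryo 2 it was 629. The lowest p on the positive side belonged to Kcnt2 (1.00, SE 0.28) and Cacnb2 (0.49, SE 0.19), and on the negative side to Kcnma1 (-0.29, SE 0.18) and Kcna4 (-0.55). Kcnma1 turned positive, at 0.078 when its probe sets were averaged and 0.099 without probe sets whose names end in _s_at, _x_at or _a_at. Kcna4 moved between -0.87 and -0.21 when 1 array was left out, and its E12.5 values were near the lower limit. The adult difference was positive and the E12.5 difference negative in 30 genes, and the reverse held in 5. Over all genes 58.7% of adult and 46.2% of E12.5 differences were positive, and the share with this pair of signs was not counted. The channel genes with a positive adult difference were 46 of 68, and 37 after median centring, so that these counts depend on the scaling. With age pairs and crosses as a block, 7 genes had an unadjusted p under 0.05 in place of 3, and the lowest adjusted p was 0.493.

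The embryos differed more by cross than by genotype in several channel genes. Over both genotypes, 4 channel genes were higher by more than 1 on the log2 scale in the second cross (Kcne2 by 4.56, Kcnq3 by 2.15, Kcnn2 by 1.84 and Kcnd3 by 1.03), where 1.55% of all genes were, and 1 in the first (Cacnb4, at -1.01 for the second minus the first), where 1.12% of all genes were. Kcnq3 stood at 2.90, 4.62 and 4.82 in E12.5 mutants and 3.37, 6.04 and 5.65 in E12.5 wild types. The first value in each genotype, from the first cross, was the lowest. Kcnn2 stood at 5.41, 6.80 and 6.73 in E12.5 mutants and 5.22, 7.56 and 7.53 in E12.5 wild types, again with the first cross lowest. Kcnd3 stood at 5.42, 6.35 and 6.36 in E12.5 mutants and 5.76, 7.04 and 6.74 in E12.5 wild types.

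**Figure D4:**
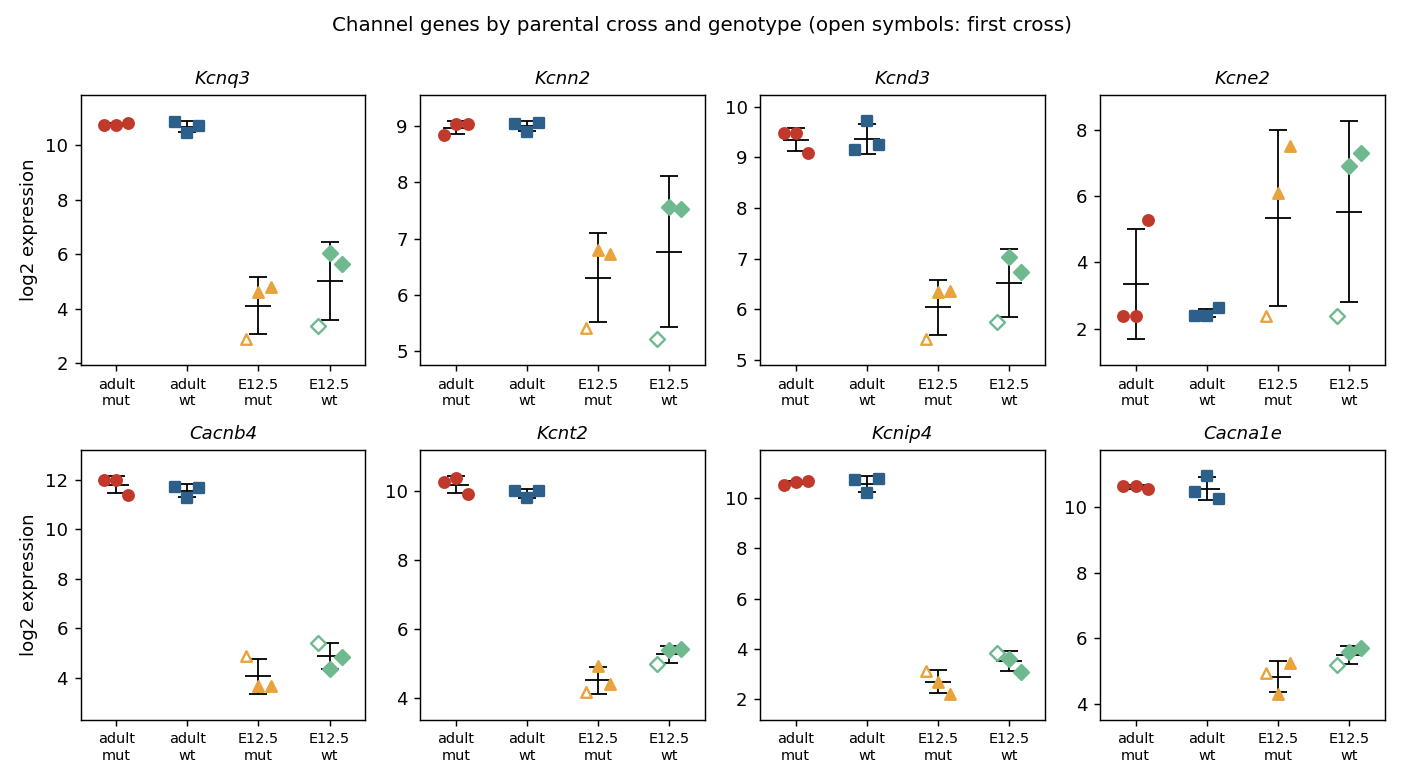
Log2 expression (vertical axes, each with its own range) of 8 channel genes in adult mutants, adult wild types, E12.5 mutants and E12.5 wild types, with a point for each array, lines for the mean ± SD of 3 arrays, and open symbols for the embryos of the first cross. In Kcnq3, Kcnn2, Kcnd3 and Kcne2 both embryos of the first cross lie below the 4 embryos of the second.

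Markers of neighbouring tissue differed between the crosses as well. The mean of 3 ventral telencephalon markers past the filter, of 6 listed, was 7.59 in mutant 1 and 8.24 in wild type 1, against 3.43 to 3.60 in the mutants and 3.31 to 5.40 in the wild types of the second cross. Dlx2, a defining gene of the ventral telencephalon, stood at 8.43 in mutant 1 and 9.04 in wild type 1 and between 3.20 and 5.80 in the second cross. Their part in the channel values was not tested.

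The second cross held 2 mutants and 2 wild types. Of the genes picked above as higher in that cross, both mutants lay below both wild types in Kcnq3, Kcnn2 and Kcnd3, and Kcne2 overlapped. The share of all genes with such an order of 2 and 2 arrays was not counted, so that no result is read from it. In a fit without both embryos of the first cross, a choice made after seeing the data, Kcnq3 differed by -1.12 (SE 0.17). Kcnn2 differed by -0.78 (SE 0.12), and each had an adjusted p of 0.0505 (limma), just over the threshold. These SEs rest on the adult arrays as well, since the fit shares 1 estimate of the spread. Over all 3 embryos of each genotype the differences were -0.91 (SE 0.63) and -0.46 (SE 0.55), and these 2 genes were singled out after their values had been seen. In the fit without the first cross 13 of 68 channel genes had an unadjusted p under 0.05, where 6.89% of all genes did, and 43 differences were negative and 23 positive. With the cross as a block and all embryos kept, 9 channel genes had an unadjusted p under 0.05, where 741 of all 11449 genes did. The lowest adjusted p of a channel gene was 0.248 (limma), for Kcnq3. Both the fit and the block left every channel gene above an adjusted p of 0.05.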

How the data were processed

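RNA from 12 samples was measured on 12 Affymetrix arrays of 45101 probe sets. The log2 values were made by the authors with GCRMA, per the submitters' processing notes, and were used unchanged. The GCRMA version and settings are not given in the sources. Gene symbols came from GEO's platform annotation and were updated by gene ID to RefSeq (GRCm38.p6), which changed 0 channel symbols. Of the probe sets, 34945 had 1 symbol and 932 several, which were left unnamed. Probe sets over log2 4 on at least 3 arrays were kept (20292), and the one with the highest mean stood for each of 11449 genes.

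limma 3.58.1 (R 4.3.3; lmFit, eBayes) was fitted over all 12 arrays with 4 group means, Benjamini-Hochberg adjustment over all genes and a threshold of 0.05. Replicates are separate animals by the adults' mouse numbers. Embryonic arrays carry only the parents, so that the spread at E12.5 is that between these samples. The main fit shares 1 estimate of the spread over all 4 groups, so its p-values and SEs rest on adult and embryonic arrays together. For Kcnq3 the SE was 0.63 at both stages. Its SDs were 0.05 in mutant and 0.20 in wild-type adults, and 1.06 and 1.44 in mutant and wild-type embryos. The arrays hold no counts, and their number limits the precision. Promoter sequences are RefSeq's (GRCm38.p6).

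The channel genes, the partner and marker lists and the tests were chosen with earlier results of these data known. Genes named in a stage comparison were up to 4 in each direction and class with the lowest p past the test, and in a mutant comparison 4 in each direction, named as not past the test, with 2 in each direction for the difference between the stages. Levels could be given for any member. Alternatives changed the filter, how probe sets stood for a gene, scaling, arrays in the fit, array weights, the variance trend, a block for age pairs and crosses, and each array in turn. The fit without the first cross was added after seeing the data. Deviations from group means correlated at 0.51 between the embryos of the first cross, 0.14 to 0.25 in the second and -0.36 to -0.23 between crosses, and at 0.19, -0.01 and 0.27 in the adult age pairs. The embryos are paired by their labelled parents, and a pairing of the adults was not clear.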

Additional observations from a re-analysis of the deposited data

How the results depend on the processing

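Counts of channel genes called stayed at 0 in both mutant comparisons and in the difference between the stages under every alternative run (unadjusted counts of 5, 6 and 3 in limma). Between the stages, 57 to 66 were called in wild types and 56 to 67 in mutants. With array weights, 4 were called lower in mutants in place of 2. Of 138 gene values, 131 kept their sign and their side of the threshold throughout. Values of 3 genes reversed. Kcnma1 did so for the difference between the stages, at 0.078 when its probe sets were averaged. It was 0.099 without probe sets whose names end in _s_at, _x_at or _a_at. Kcns2 reversed at E12.5, at -0.10 when averaged, and Kcnq1ot1 between the stages, at 0.54 in mutants and 0.47 in wild types when averaged. The cause was not tested. With the replicate block, 4 adult, 9 E12.5 and 7 between-stage differences of channel genes had an unadjusted p under 0.05 (limma). Of all 11449 genes, 711, 741 and 862 did. The lowest adjusted p-values of channel genes were 0.645, 0.248 and 0.493, and the block changed no call of a channel gene. Over all genes, the count called at E12.5 was 4, against 42 with array weights, 18 without the first cross and 0 with only the 6 arrays compared. Leaving out 1 embryo moved the E12.5 difference of Kcnq3 between -1.73 and -0.30 and that of Kcnn2 between -1.23 and -0.01. The adult Kat6b call was also lost with no filter (adjusted p 0.104) and with only the 6 adult arrays (0.071), and the E12.5 call with only the 6 E12.5 arrays (0.486). Values near the lower limit of 2.19 have no order and bound the stage differences from below.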
